A study of Homo sapiens with 6 samples.

Results

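The genes described here are 34 genes of the ATF4 pathway and the unfolded protein response, measured by RNA sequencing in ARID4B knockout (KO) and wild-type (WT) K562 cells, 3 libraries each. They were chosen by symbol, as the 34 rows of the 34495 rows of the gene count table that carry a listed name, so no measured value entered the rule, although the names were listed with earlier results of these data known. K562 is an established human erythroleukemia line, and ARID4B is a subunit of the SIN3 histone deacetylase corepressor complex. The KO and WT cells were grown in the same medium with serum and antibiotics, and no agent that provokes endoplasmic reticulum (ER) or amino acid stress is named in the labels. The sources used here do not say how ARID4B was disrupted, whether the KO cells were 1 clone or whether the libraries of a genotype came from separate cultures. The p-values therefore rest on the spread among libraries alone, and that spread may be technical.

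Cells answer several kinds of stress by phosphorylating the translation initiation factor eIF2, which lowers protein synthesis in general while the mRNA of the transcription factor ATF4 is translated more. ATF4 then activates genes of amino acid synthesis and uptake, redox balance and, when stress persists, cell death. The unfolded protein response starts from sensors in the ER membrane, of which EIF2AK3 (PERK) is an eIF2 kinase, ERN1 (IRE1) splices the XBP1 mRNA and ATF6 is released by cleavage, and it raises ER chaperones. In erythroid cells a further eIF2 kinase, EIF2AK1 (HRI), ties translation of globin to the supply of heme. Gene counts measure mRNA only and show neither ATF4 protein, eIF2 phosphorylation nor the splicing of XBP1.

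The members were split by role into 20 genes of the ATF4 arm and 14 genes of the ER arm. The ATF4 arm held 6 transcription factors, 5 feedback and effector genes, 6 enzymes of amino acid and folate metabolism and 3 amino acid transporter genes. The ER arm held 4 genes for the sensors and XBP1, and 10 for chaperones and degradation. Levels are given as CPM, counts scaled to the same total in every library and adjusted by the TMM method, and differences as log2 of KO over WT with their standard error (SE). The adjusted p is Benjamini-Hochberg adjusted over the 13696 genes that passed the filter on low counts, and a gene is said to have risen or fallen where it was under 0.05. Of the 34 members, 33 passed that filter. The exception was VLDLR, a lipoprotein receptor gene, with 9, 1 and 4 counts in KO libraries 1, 2 and 3 and 3, 6 and 3 counts in WT libraries 1, 2 and 3.

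Library totals ran from 21701404 to 24287385 estimated counts in KO and from 23959811 to 30346244 in WT. ARID4B itself was at 8.52, 7.22 and 7.68 CPM in KO libraries 1, 2 and 3, against 38.4, 41.0 and 40.9 CPM in WT libraries (log2 -2.36, SE 0.10, edgeR adjusted p = 0.000132), so the libraries bore out their labels. Replicate spread was far wider in KO, where the biological coefficient of variation over all tested genes was 32.3%, than in WT, where it was 4.8%. All 12 erythroleukemia markers examined passed the filter, of which 1 rose and 3 fell, beside 18.3% and 15.4% of all tested genes. Of 10 markers of other cell types 6 passed it and 4 rose, namely the collagen genes COL1A1 and COL1A2 and the keratin genes KRT8 and KRT18, while the B cell gene MS4A1 had 0 counts in every library.

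Across the members, 5 rose and 5 fell in KO and 23 did not pass the threshold. Among all tested genes 18.3% rose and 15.4% fell, so the members' share of calls was near that of the table as a whole. The split between the arms was uneven. In the ATF4 arm 3 of 19 tested members rose (ATF3, DDIT3 and PPP1R15A) and 0 fell, with a median log2 difference of 0.08. In the ER arm 2 of 14 rose (ERN1 and SEL1L) and 5 fell (CANX, HSPA5, PDIA4, CALR and HYOU1), with a median of -0.25, against 0.02 over all tested genes. Whether the arms differed was not tested. All 10 members that rose or fell had KO and WT libraries that did not overlap, which genes picked by their adjusted p are nearly bound to show. Of all tested genes, past the threshold or not, 52.3% had libraries that did not overlap. Counting members not past the threshold too, all 3 KO libraries lay above all WT libraries for 7 of 33 members, against 26.6% of all tested genes, and below them for 10 of 33, against 25.7%. With library totals alone in place of TMM scaling the median of all genes was 0.13, that of the ATF4 arm 0.19 and that of the ER arm -0.13, and CALR and HYOU1 then missed the threshold. In bulk samples fewer expressing cells and less RNA per cell cannot be told apart.

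**Figure D1:**
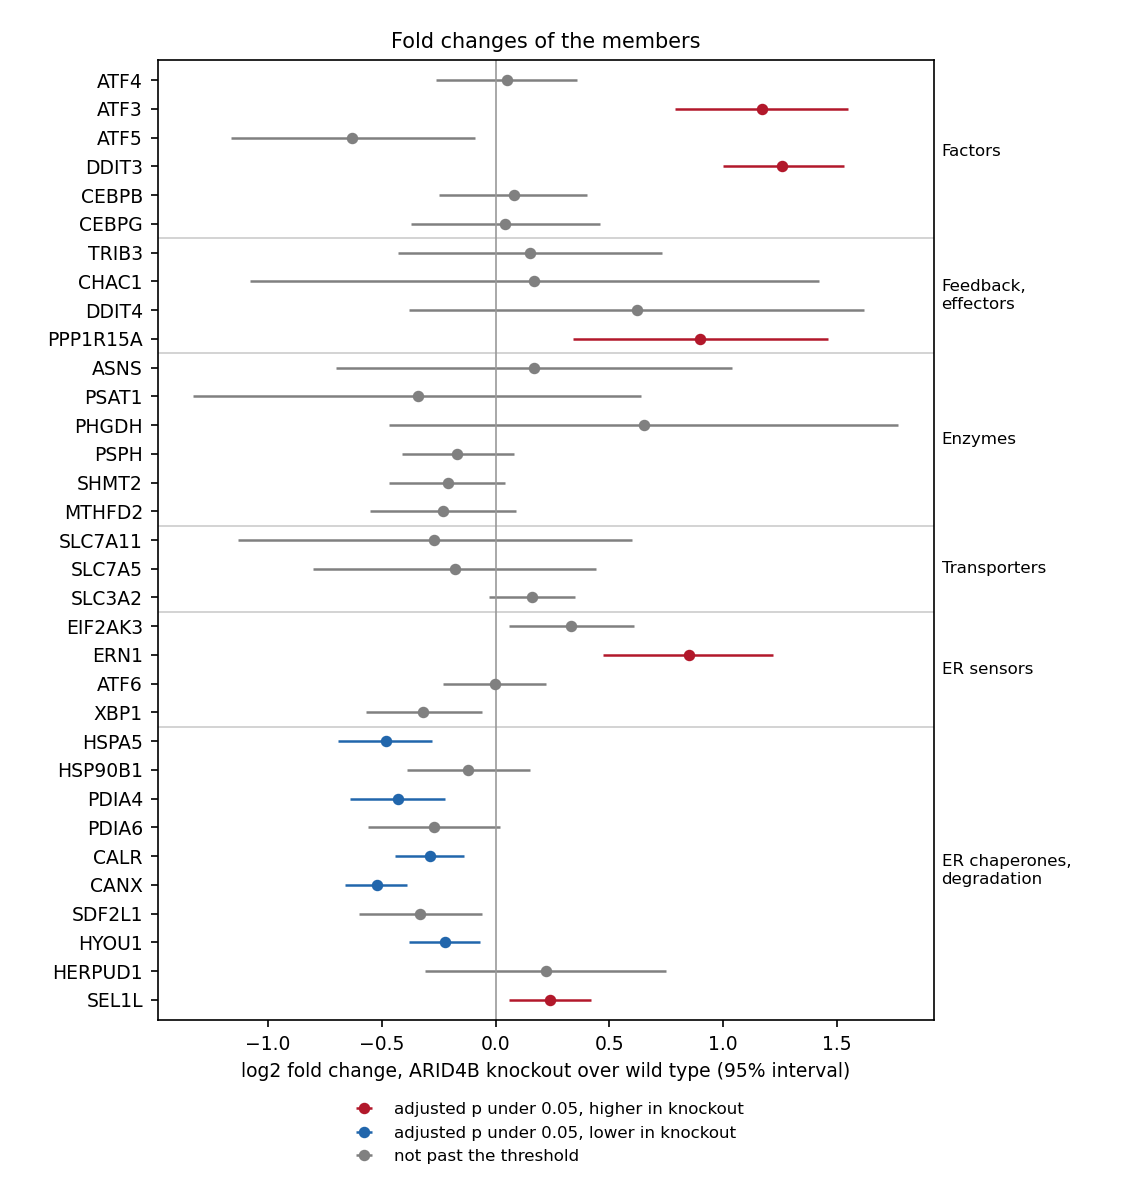
Log2 fold change of ARID4B knockout over wild type for the 33 tested members, grouped by role; points are edgeR estimates and bars their 95% intervals (n = 3 libraries each). The 3 rises of the ATF4 arm (red) lie between 0.90 and 1.26, and the 5 falls (blue) all lie among the ER chaperones, between -0.22 and -0.52.

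Among the transcription factors of the ATF4 arm, DDIT3 and ATF3 rose more than 2-fold while ATF4, the factor at the head of the arm, did not pass the threshold. DDIT3 encodes CHOP, a factor that ATF4 induces and that favours cell death under lasting stress. Its level was 58.6, 51.8 and 68.0 CPM in KO libraries 1, 2 and 3, against 24.9, 24.0 and 25.5 CPM in WT libraries 1, 2 and 3. Every KO library lay at least 2-fold above every WT library, and the estimate was 2.4-fold (log2 1.26, SE 0.11, edgeR adjusted p = 0.00113). The gene lies at chr12:57910371-57914300 (hg19) and overlaps the span of MARS, a tRNA synthetase gene whose own log2 difference was -0.08. ATF3, a stress-induced factor of the same bZIP class, had 36.1, 25.6 and 25.7 CPM in KO libraries 1, 2 and 3, against 12.7, 13.5 and 12.5 CPM in WT libraries 1, 2 and 3. The groups did not overlap, KO library 1 was the highest, and the estimate was 2.25-fold (log2 1.17, SE 0.16, edgeR adjusted p = 0.00329). ATF3 lies at chr1:212738676-212794119 (hg19).

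ATF4, at chr22:39916569-39918691 (hg19), had 354, 284 and 413 CPM in KO libraries 1, 2 and 3, against 347, 341 and 330 CPM in WT libraries 1, 2 and 3. KO library 2 lay below all WT libraries and KO libraries 1 and 3 above them, so the groups overlapped, and the log2 difference was 0.05 with a 95% interval of -0.26 to 0.36 (edgeR adjusted p = 0.81). ATF5, a factor whose mRNA is translated under stress in the same way as that of ATF4, was lower in all 3 KO libraries, at 39.9, 27.5 and 53.9 CPM in KO libraries 1, 2 and 3, against 67.3, 62.7 and 57.5 CPM in WT libraries 1, 2 and 3, but missed the threshold (log2 -0.63, SE 0.23, edgeR adjusted p = 0.072). It passed without KO library 3 (log2 -0.90, edgeR adjusted p = 0.0113), but not without KO library 1 or 2 (log2 -0.62 and -0.42). Its span overlaps those of IL4I1 (log2 1.08) and NUP62 (log2 -0.44). With DDIT3, ERN1 and ATF5, the members whose spans overlap other tested genes were PSPH, SHMT2, EIF2AK3 and SDF2L1, and whether reads were counted by strand is unknown. CEBPG, a C/EBP factor that pairs with ATF4, averaged 52.0 ± 13.6 CPM in KO and 50.4 ± 2.13 CPM in WT libraries (SD, n = 3 each), and CEBPB, another C/EBP factor, averaged 21.0 ± 2.71 CPM in KO and 19.9 ± 1.98 CPM in WT libraries (SD, n = 3 each). Neither passed the threshold (log2 0.04 and 0.08).

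The promoters of the members were searched for the binding motifs of these factors, in windows of 300 bases that run from 250 before to 50 after each RefSeq start (GRCh38.p14). A promoter was found for 31 of the 34 members, 17 in the ATF4 arm and 14 in the ER arm. The C/EBP-ATF response element, searched on both strands as TGATGNAA, occurred in 3.62% of all 35116 promoters. Counted by gene, as the members are here, 4.46% of 27305 genes held it in at least 1 promoter. It was found in 6 members, ATF3, ASNS, CEBPG, CHAC1 and SLC3A2 of the ATF4 arm and HERPUD1 of the ER arm. Of these only ATF3 rose, and the other 5 did not pass the threshold, while 18.3% of all tested genes rose. The ATF3 promoter is printed because it joins the motif to a gene that rose; 1 of the 2 ATF3 starts in the table holds the motif, at bases 60 to 67, shown in capitals (chr1:212565157-212565456, plus strand).
ATF3: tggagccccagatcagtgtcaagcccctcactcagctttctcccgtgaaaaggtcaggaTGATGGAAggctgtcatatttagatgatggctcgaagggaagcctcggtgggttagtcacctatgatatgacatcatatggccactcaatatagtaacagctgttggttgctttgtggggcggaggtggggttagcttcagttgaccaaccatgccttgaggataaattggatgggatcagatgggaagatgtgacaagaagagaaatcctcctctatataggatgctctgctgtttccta
The sites of the other members are given in the motif's orientation with its fixed letters in capitals, and they differ at 1 free base.
ASNS: TGATGaAA
SLC3A2: TGATGtAA
CHAC1: TGATGcAA
CEBPG: TGATGcAA
HERPUD1: TGATGcAA

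Of the feedback and effector genes, PPP1R15A rose and the others did not pass the threshold. PPP1R15A encodes GADD34, which brings protein phosphatase 1 to eIF2 and reverses its phosphorylation. It was at 151, 257 and 133 CPM in KO libraries 1, 2 and 3, against 96.1, 97.1 and 96.6 CPM in WT libraries 1, 2 and 3. All KO libraries lay above the WT libraries, with KO library 2 the highest, and the estimate was 1.87-fold (log2 0.90, SE 0.24, edgeR adjusted p = 0.0265). The gene lies at chr19:49375649-49379319 (hg19), and the median log2 difference of the 50 tested genes on each side was 0.14, 0.26 and -0.29 in KO libraries 1, 2 and 3. The rise stayed past the threshold with an offset for these neighbours, and without KO library 2 the log2 difference was 0.55 (edgeR adjusted p = 0.00539). Without any 1 of the WT libraries PPP1R15A missed the threshold (edgeR adjusted p between 0.0944 and 0.0992).

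DDIT4, which encodes the mTORC1 inhibitor REDD1, spanned a 3.83-fold range among the KO libraries, with 140, 65.3 and 250 CPM in KO libraries 1, 2 and 3, against 107, 96.8 and 92.7 CPM in WT libraries 1, 2 and 3. KO libraries 1 and 3 were above all WT libraries and KO library 2 below them (log2 0.62, SE 0.42, edgeR adjusted p = 0.296). Without KO library 2, the lowest, the gene passed the threshold (log2 0.97, edgeR adjusted p = 0.0264). It missed it without KO library 1 or 3 (log2 0.67 and 0.04, edgeR adjusted p = 0.304 and 0.929). CHAC1, which encodes an enzyme that degrades glutathione, had 6.45, 2.23 and 12 CPM in KO libraries 1, 2 and 3, against 6.61, 6.05 and 5.8 CPM in WT libraries 1, 2 and 3. Its KO libraries spanned 5.4-fold on both sides of the WT libraries, and the estimate was log2 0.17 with a 95% interval of -1.08 to 1.42, so a change of 2-fold in either direction lies within the interval. TRIB3, a pseudokinase that restrains ATF4 and CHOP, had 84.5, 61.7 and 129 CPM in KO libraries 1, 2 and 3, against 84.5, 84.4 and 79.1 CPM in WT libraries 1, 2 and 3. Here KO library 1 was level with WT, KO library 2 below it and KO library 3 above it (log2 0.15, SE 0.24, edgeR adjusted p = 0.667).

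**Figure D2:**
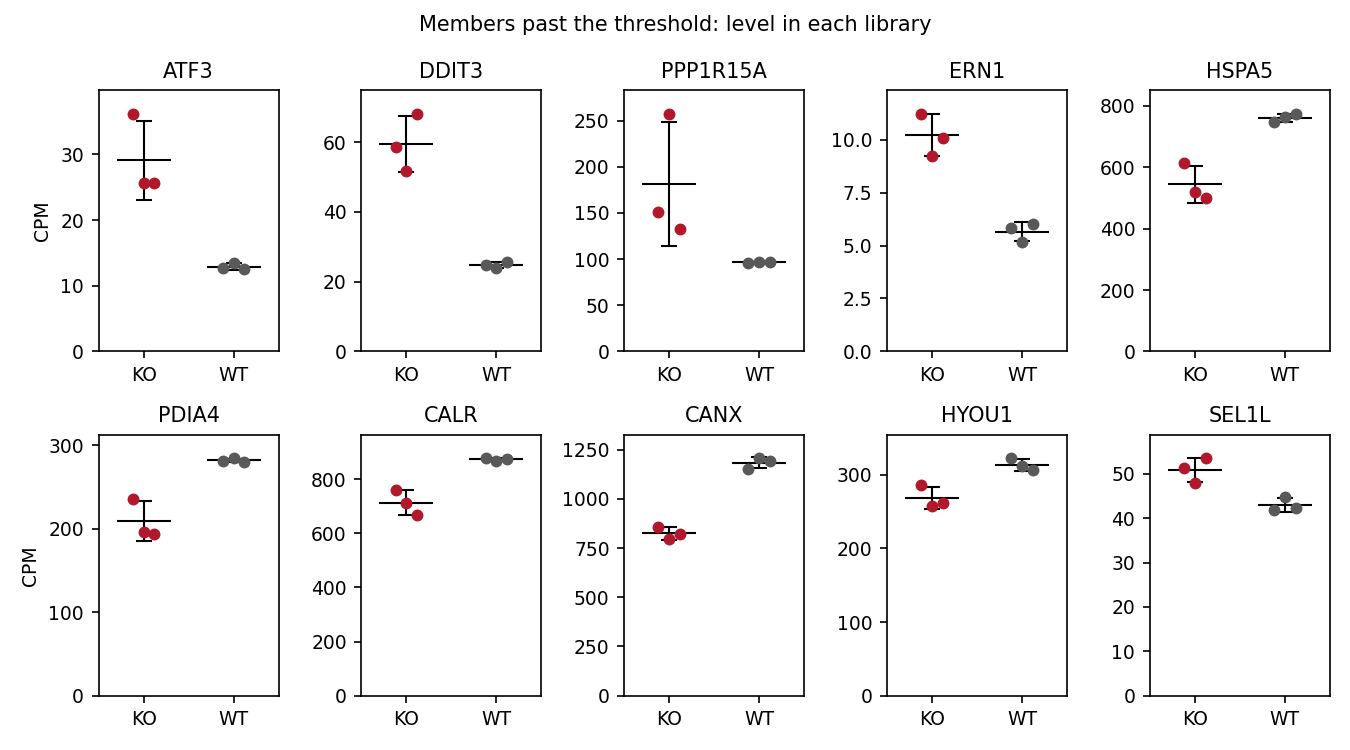
Level in CPM of the 10 members that rose or fell, in the ARID4B knockout (left in each panel) and wild-type (right) libraries; points are libraries, and lines and bars are the mean ± SD (n = 3 each). In each panel the genotypes do not overlap, and PPP1R15A has the widest knockout range, from 133 to 257 CPM.

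None of the 6 enzymes passed the threshold in either direction, and 3 of them were among the members whose KO libraries lay farthest apart. ASNS, asparagine synthetase, had 267, 152 and 483 CPM in KO libraries 1, 2 and 3, against 271, 263 and 268 CPM in WT libraries 1, 2 and 3. KO library 1 was within the WT range, KO library 2 was the lowest of all 6 libraries and KO library 3 the highest (log2 0.17, SE 0.37, edgeR adjusted p = 0.751). PHGDH, the first enzyme of serine synthesis from glycolysis, showed the same order, with 39.2, 25.8 and 104 CPM in KO libraries 1, 2 and 3, against 39.6, 35.1 and 32.8 CPM in WT libraries 1, 2 and 3 (log2 0.65, SE 0.47, edgeR adjusted p = 0.325). PSAT1, the second enzyme of that route, had 120, 38.1 and 138 CPM in KO libraries 1, 2 and 3, against 122, 126 and 128 CPM in WT libraries 1, 2 and 3. Its KO library 2 stood apart below the rest, at -1.72 on the log2 scale from the WT mean, while KO libraries 1 and 3 were at -0.07 and 0.14 (log2 -0.34, SE 0.41, edgeR adjusted p = 0.555). Without KO library 2 the PSAT1 difference was 0.03, and without KO library 3 the ASNS and PHGDH differences were -0.36 and -0.15, each of opposite sign to the value with all libraries.

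PSPH, the phosphatase that completes serine synthesis, averaged 26 ± 2.86 CPM in KO and 29.3 ± 0.426 CPM in WT libraries (SD, n = 3 each). SHMT2 and MTHFD2, mitochondrial enzymes that move carbon units from serine to folate, were lower in all 3 KO libraries but missed the threshold. SHMT2 averaged 210 ± 30.1 CPM in KO and 243 ± 1.32 CPM in WT libraries (SD, n = 3 each, log2 -0.21, SE 0.11, edgeR adjusted p = 0.171), and MTHFD2 averaged 187 ± 35.1 CPM in KO and 220 ± 6.07 CPM in WT libraries (SD, n = 3 each, log2 -0.23, SE 0.14, edgeR adjusted p = 0.234). These 3 enzymes spanned 1.22- to 1.44-fold among the KO libraries, against 3.17- to 4.02-fold for ASNS, PSAT1 and PHGDH.

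The 3 transporter genes did not pass the threshold. SLC7A11, the cystine-glutamate exchanger subunit, had 19.9, 16.5 and 45.6 CPM in KO libraries 1, 2 and 3, against 30.4, 33.9 and 34.2 CPM in WT libraries 1, 2 and 3. KO libraries 1 and 2 were below all WT libraries and KO library 3 above them (log2 -0.27, SE 0.36, edgeR adjusted p = 0.608). Without KO library 3, the highest, the gene passed the threshold as lower (log2 -0.87, edgeR adjusted p = 0.00467). It missed it without KO library 1 or 2 (log2 -0.08 and -0.01, edgeR adjusted p = 0.881 and 0.981). SLC7A5, the light subunit of the large neutral amino acid transporter, had 428, 194 and 367 CPM in KO libraries 1, 2 and 3, against 382, 377 and 360 CPM in WT libraries 1, 2 and 3, with KO library 2 lowest and KO library 1 highest of the 6 (log2 -0.18, SE 0.26, edgeR adjusted p = 0.634). SLC3A2, the heavy subunit that both of these transporters share, was higher in all 3 KO libraries at 256 ± 21.8 CPM in KO and 229 ± 9.86 CPM in WT libraries (SD, n = 3 each), and did not pass the threshold (log2 0.16, SE 0.08, edgeR adjusted p = 0.161). It passed with library totals alone as the scaling (edgeR adjusted p = 0.0325).

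Among the ER sensors ERN1 rose and the other 3 genes did not pass the threshold. ERN1, which encodes the kinase and ribonuclease IRE1, had 11.2, 9.23 and 10.1 CPM in KO libraries 1, 2 and 3, against 5.82, 5.16 and 6.01 CPM in WT libraries 1, 2 and 3. The groups did not overlap and the estimate was 1.8-fold (log2 0.85, SE 0.16, edgeR adjusted p = 0.00858), with a miss of the threshold when WT library 2 was left out (edgeR adjusted p = 0.0544). ERN1 lies at chr17:62120390-62207502 (hg19), its span overlaps that of LRRC37A3 (log2 0.37), and it was the least abundant tested member with a transcript length, at 1.29 CPM per kb of transcript in KO and 0.719 in WT. EIF2AK3, the eIF2 kinase PERK, was higher in all 3 KO libraries at 17.4 ± 1.12 CPM in KO and 13.8 ± 0.996 CPM in WT libraries (SD, n = 3 each) and missed the threshold narrowly (log2 0.33, SE 0.12, edgeR adjusted p = 0.0648). XBP1, the factor whose mRNA ERN1 splices, was lower in all 3 KO libraries, at 73.7, 61.6 and 81.6 CPM in KO libraries 1, 2 and 3, against 88.8, 89.7 and 91.6 CPM in WT libraries 1, 2 and 3, and also missed it (log2 -0.32, SE 0.11, edgeR adjusted p = 0.0596). ATF6, the sensor that becomes a factor by cleavage, averaged 100 ± 11.1 CPM in KO and 101 ± 4 CPM in WT libraries (SD, n = 3 each), with a 95% interval of the log2 difference of -0.23 to 0.22. The 50 tested genes on each side of ATF6 had a median log2 difference of 0.0012, 0.49 and 0.24 in KO libraries 1, 2 and 3, and with an offset for these neighbours ATF6 was lower in KO and past the threshold (log2 -0.25, edgeR adjusted p = 0.0358).

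The ER chaperones held every fall among the members, each under 1.5-fold and each in all 3 KO libraries. HSPA5 encodes BiP, the main ER chaperone of the HSP70 class, which also holds the 3 sensors inactive. Its level was 614, 518 and 501 CPM in KO libraries 1, 2 and 3, against 748, 763 and 773 CPM in WT libraries 1, 2 and 3. The highest KO library lay well below the lowest WT library, and the level was 1.4-fold lower in KO (log2 -0.48, SE 0.09, edgeR adjusted p = 0.0073). CANX encodes calnexin, a membrane chaperone that binds sugar chains of folding glycoproteins, and had 859, 794 and 821 CPM in KO libraries 1, 2 and 3, against 1154, 1205 and 1192 CPM in WT libraries 1, 2 and 3. It was 1.44-fold lower (log2 -0.52, SE 0.06, edgeR adjusted p = 0.00201), and its KO libraries lay within 1.08-fold of each other.

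PDIA4, a disulfide isomerase, had 236, 196 and 194 CPM in KO libraries 1, 2 and 3, against 281, 284 and 280 CPM in WT libraries 1, 2 and 3, and was 1.35-fold lower in KO (log2 -0.43, SE 0.09, edgeR adjusted p = 0.0114). CALR encodes calreticulin, the soluble counterpart of calnexin, and had 759, 713 and 668 CPM in KO libraries 1, 2 and 3, against 876, 868 and 875 CPM in WT libraries 1, 2 and 3. This 1.22-fold lower level (log2 -0.29, SE 0.06, edgeR adjusted p = 0.0148) was larger than the spread among libraries, and CALR was the most abundant member per kb of transcript in both genotypes. HYOU1, a nucleotide exchange factor for BiP, averaged 268 ± 15.1 CPM in KO and 313 ± 8.09 CPM in WT libraries (SD, n = 3 each) and was 1.17-fold lower (log2 -0.22, SE 0.07, edgeR adjusted p = 0.0371). Leaving out any 1 of the WT libraries left CALR and HYOU1 short of the threshold (edgeR adjusted p between 0.0523 and 0.0585 for CALR and between 0.0852 and 0.106 for HYOU1). HYOU1 also missed it with library totals alone, upper quartile factors, the offset for neighbouring genes and the replicate number as a block, with adjusted p of 0.264, 0.159, 0.0523 and 0.0748, and without KO library 2 or 3, with adjusted p of 0.0568 and 0.0501. HSPA5, PDIA4 and CANX passed the threshold in all 14 alternatives. The genes lie on different chromosomes, HSPA5 at chr9:127997127-128003666, CANX at chr5:179125428-179158639, PDIA4 at chr7:148700154-148725782, CALR at chr19:13049414-13055304 and HYOU1 at chr11:118914896-118927925 (hg19).

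The remaining members of this class did not all go the same way. SDF2L1, which works with BiP, averaged 137 ± 19.3 CPM in KO and 172 ± 12.7 CPM in WT libraries (SD, n = 3 each) and was lower in all 3 KO libraries without passing the threshold (log2 -0.33, SE 0.11, edgeR adjusted p = 0.0639). PDIA6, a disulfide isomerase, averaged 309 ± 52.3 CPM in KO and 373 ± 15.5 CPM in WT libraries (SD, n = 3 each, log2 -0.27, SE 0.12, edgeR adjusted p = 0.133). HSP90B1, the ER form of HSP90, averaged 858 ± 131 CPM in KO and 930 ± 45.8 CPM in WT libraries (SD, n = 3 each), with KO library 1 above the WT libraries and KO library 3 below them (log2 -0.12, SE 0.11, edgeR adjusted p = 0.467). The remaining 2 genes serve ER-associated degradation. SEL1L, the partner of the HRD1 ubiquitin ligase that removes misfolded proteins, was at 51.3, 48.0 and 53.5 CPM in KO libraries 1, 2 and 3, against 41.8, 44.9 and 42.3 CPM in WT libraries 1, 2 and 3, and rose 1.18-fold (log2 0.24, SE 0.08, edgeR adjusted p = 0.0463), a call that was lost under 5 of the 8 alternative fits with all libraries (adjusted p between 0.0566 and 0.163) and without KO library 1, KO library 3 or any 1 WT library (between 0.0607 and 0.187). HERPUD1, a membrane protein of the same degradation complex, had 38.9, 21.4 and 38.7 CPM in KO libraries 1, 2 and 3, against 29.6, 27.8 and 27.8 CPM in WT libraries. Its genotypes overlapped and it did not pass the threshold (log2 0.22, SE 0.22, edgeR adjusted p = 0.49). Without KO library 2, the lowest, it passed as higher (log2 0.44, edgeR adjusted p = 0.0102), while without KO library 1 or 3 the log2 difference was 0.08 and 0.07.

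Other motifs were found in promoters of ER members, again searched on both strands. In the ER stress response element (ERSE), CCAAT is followed by CCACG after a gap of 9 bases. It occurred in 0.0769% of all promoters and 0.0916% of all genes. The members with it were 6 ER members, namely CANX, HSPA5, CALR, HSP90B1, PDIA6 and XBP1, and 0 of the ATF4 arm. Its second form (ERSE-II), ATTGG and CCACG 1 base apart, occurred in 0.0541% of promoters and 0.0696% of genes. The members with ERSE-II were HERPUD1, HYOU1 and SDF2L1. The unfolded protein response element TGACGTGG occurred in 0.729% of promoters and 0.927% of genes. Among the members it was in HYOU1 alone, where it overlaps an ERSE-II. These elements are known to be bound by ATF6 and XBP1. Of the 9 ER members with an ERSE or ERSE-II, 4 fell and 5 did not pass the threshold, while 15.4% of all tested genes fell. In the ER arm as a whole 5 of 14 fell, among them PDIA4, for which none of these motifs was found. Whether the motifs go with the falls was not tested. The sites are shown with the fixed letters in capitals, to show that they share the ends and not the gap.
HSPA5: CCAATcggcggcctCCACG
CANX: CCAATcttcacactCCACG
CALR: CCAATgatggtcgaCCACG
HSP90B1, first site: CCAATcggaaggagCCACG
HSP90B1, second site: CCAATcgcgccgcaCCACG
PDIA6: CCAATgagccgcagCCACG
XBP1: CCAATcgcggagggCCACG
HYOU1: ATTGGaCCACG
HERPUD1: ATTGGgCCACG
SDF2L1: ATTGGtCCACG

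The whole windows of CANX and HSPA5, the ERSE holders with the largest falls, and of HYOU1, which holds the other motifs, are printed with all motif bases in capitals (GRCh38.p14). For CANX the window is chr5:179698679-179698978 on the plus strand, 1 of 3 starts that hold the element among 4. For HSPA5 it is chr9:125241294-125241593 and for HYOU1 chr11:119057156-119057455, both on the minus strand, and in HYOU1 the ERSE-II elements read on the strand opposite to the printed one.
CANX: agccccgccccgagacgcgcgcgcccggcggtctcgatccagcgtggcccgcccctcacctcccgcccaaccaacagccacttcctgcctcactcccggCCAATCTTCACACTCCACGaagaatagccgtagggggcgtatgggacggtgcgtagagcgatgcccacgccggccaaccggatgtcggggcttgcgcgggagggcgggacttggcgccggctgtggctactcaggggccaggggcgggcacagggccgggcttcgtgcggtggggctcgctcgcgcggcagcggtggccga
HSPA5: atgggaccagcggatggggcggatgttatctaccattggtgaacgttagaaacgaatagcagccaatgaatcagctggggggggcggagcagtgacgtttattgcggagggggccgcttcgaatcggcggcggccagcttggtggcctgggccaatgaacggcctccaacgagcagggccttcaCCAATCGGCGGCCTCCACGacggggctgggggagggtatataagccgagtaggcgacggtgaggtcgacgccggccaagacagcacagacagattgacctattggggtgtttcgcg
HYOU1: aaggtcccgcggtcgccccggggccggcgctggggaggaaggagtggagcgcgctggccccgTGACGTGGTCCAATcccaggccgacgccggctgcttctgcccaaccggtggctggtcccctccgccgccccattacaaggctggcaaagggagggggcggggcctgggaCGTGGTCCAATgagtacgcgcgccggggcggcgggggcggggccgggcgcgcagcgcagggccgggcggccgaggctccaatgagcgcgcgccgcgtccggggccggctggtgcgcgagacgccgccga
A match is a description of these letters and not of binding in these cells.

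The KO libraries differed among themselves in a recurring order in the ATF4 arm, which the genotype means do not show. KO library 2 was the lowest KO library for 17 of 19 tested members of the arm, the exceptions being CEBPG and PPP1R15A, against 32.5% of all tested genes. KO library 3 was the highest for 13 of 19, against 33.1%, and both held together for 13 of 19, against 14.8%. Set against all 3 WT libraries, KO library 2 was below them for 14 members and above them for 4, and KO library 3 was above them for 13 and below them for 4. KO library 1 was above them for 9 and below them for 6. Over all tested genes KO libraries 1, 2 and 3 lay below all WT libraries for 42.7%, 42.8% and 41.8% of genes and above them for 43.9%, 43.2% and 43.2%. The median log2 difference of the arm from the WT mean was 0.07, -0.46 and 0.30 in KO libraries 1, 2 and 3, against 0.01 in each over all tested genes. Summed over the 20 genes the arm held 2533, 1854 and 3039 CPM in KO libraries 1, 2 and 3, against 2389, 2345 and 2313 CPM in WT libraries 1, 2 and 3.

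**Figure D3:**
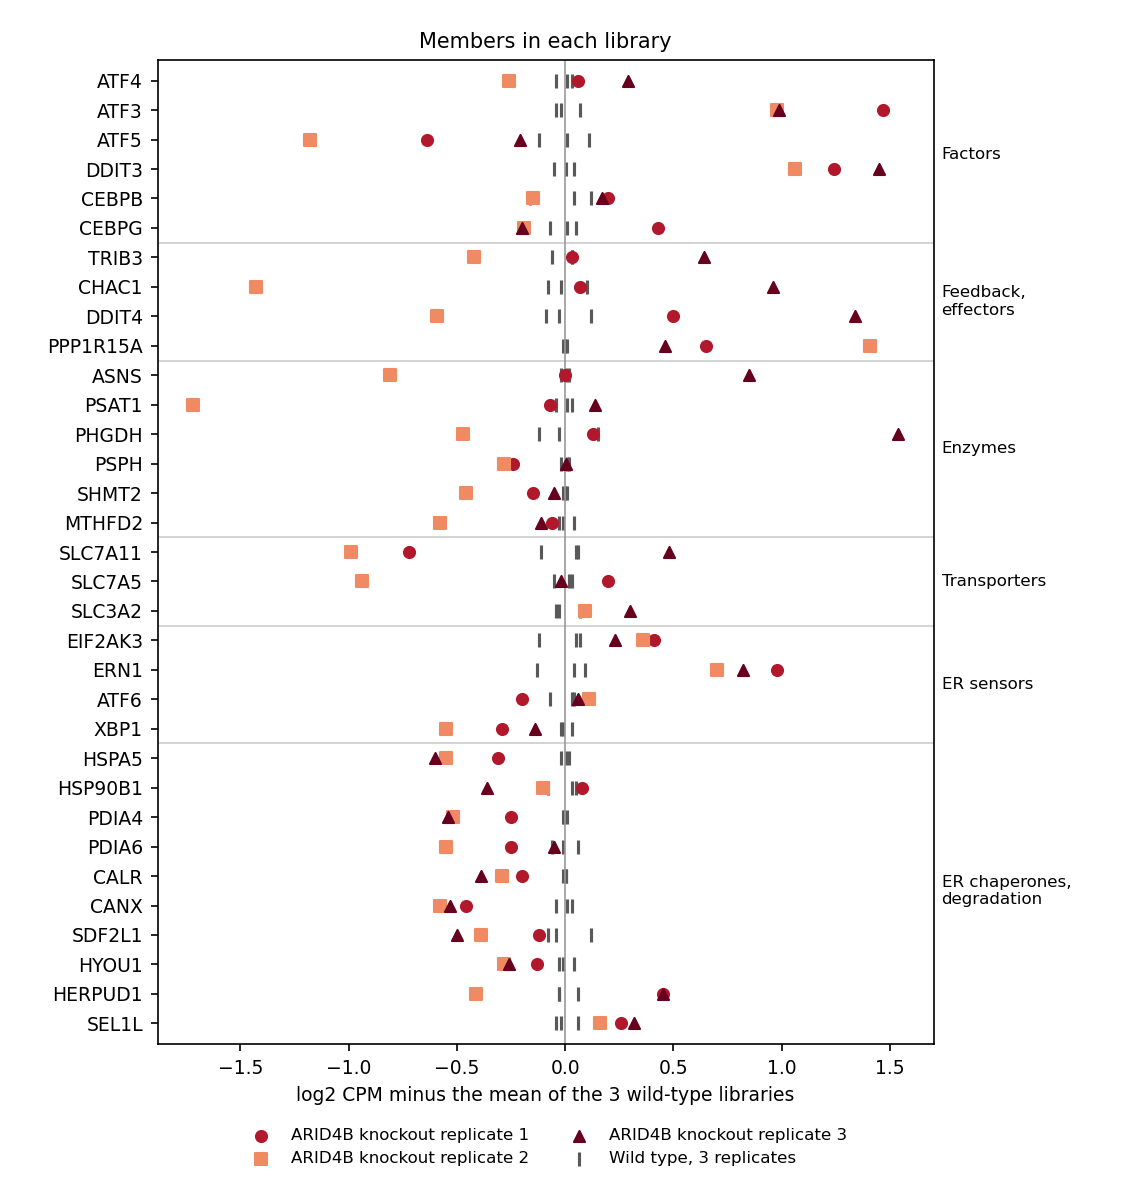
Log2 CPM of each tested member minus the mean of the 3 wild-type libraries; coloured symbols are the ARID4B knockout libraries and grey ticks the wild-type libraries. In the ATF4 arm knockout library 2 (squares) lies leftmost for 17 of 19 members, and among the ER chaperones the 3 knockout libraries lie closer together.

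For 8 of the 19 members the highest KO library was at least 2-fold above the lowest, against 18.8% of all tested genes. These were CHAC1, PHGDH, DDIT4, PSAT1, ASNS, SLC7A11, SLC7A5 and TRIB3, effectors, enzymes and transporters, and KO library 2 was the lowest for each of them. The factors ATF3 and DDIT3, which rose, spanned 1.41- and 1.31-fold. In the ER arm KO library 1 was the highest KO library for 10 of 14 members, against 36.4% of all tested genes. There 0 of 14 members reached 2-fold, and the median ratio of the highest to the lowest KO library was 1.22, against 1.93 in the ATF4 arm and 1.35 over all tested genes. Among WT libraries that ratio was 1.07 in both arms. With KO library 3 left out, the median log2 difference of the ATF4 arm was -0.19, and with KO library 2 left out 0.17, whereas that of the ER arm was -0.24 and -0.18. The ER arm summed to 4490, 3998 and 3954 CPM in KO libraries 1, 2 and 3, against 5079, 5199 and 5231 CPM in WT libraries 1, 2 and 3.

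Among 22 other ATF4 targets of amino acid and stress metabolism, KO library 2 was the lowest KO library for 18, against 32.5% of all tested genes, and KO library 3 the highest for 14, against 33.1%. Both held for 12 of the 22, against 14.8% of all tested genes, and 9 spanned at least 2-fold among the KO libraries, against 18.8%.

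Other features also differed among the KO libraries. The share of counts on the mitochondrial chromosome was 1.08%, 1.64% and 1.67% in KO libraries 1, 2 and 3, against 1.12%, 0.83% and 0.98% in WT libraries. The 12 erythroleukemia markers summed to 16075, 30128 and 22667 CPM in KO libraries 1, 2 and 3, against 17024 to 18492 CPM in WT, and KO library 2 was the highest KO library for 10 of them, against 30.4% of all tested genes. The 10 markers of other cell types summed to 797, 1433 and 1797 CPM in KO, against 626 to 674 CPM in WT. KRT8 held 345, 631 and 872 CPM of this in KO libraries 1, 2 and 3, against 289 to 336 CPM in WT, and KRT18 held 401, 570 and 684 CPM in KO, against 326 CPM in each WT library. COL1A2 was at 14.7, 201 and 230 CPM in KO libraries 1, 2 and 3, against 7.92 to 8.99 CPM in WT. COL1A1 had another order, at 26.4, 28.9 and 7.22 CPM in KO libraries 1, 2 and 3, against 0.171 to 0.788 CPM in WT. The part of these features in the order of the ATF4 arm was not tested.

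**Figure D4:**
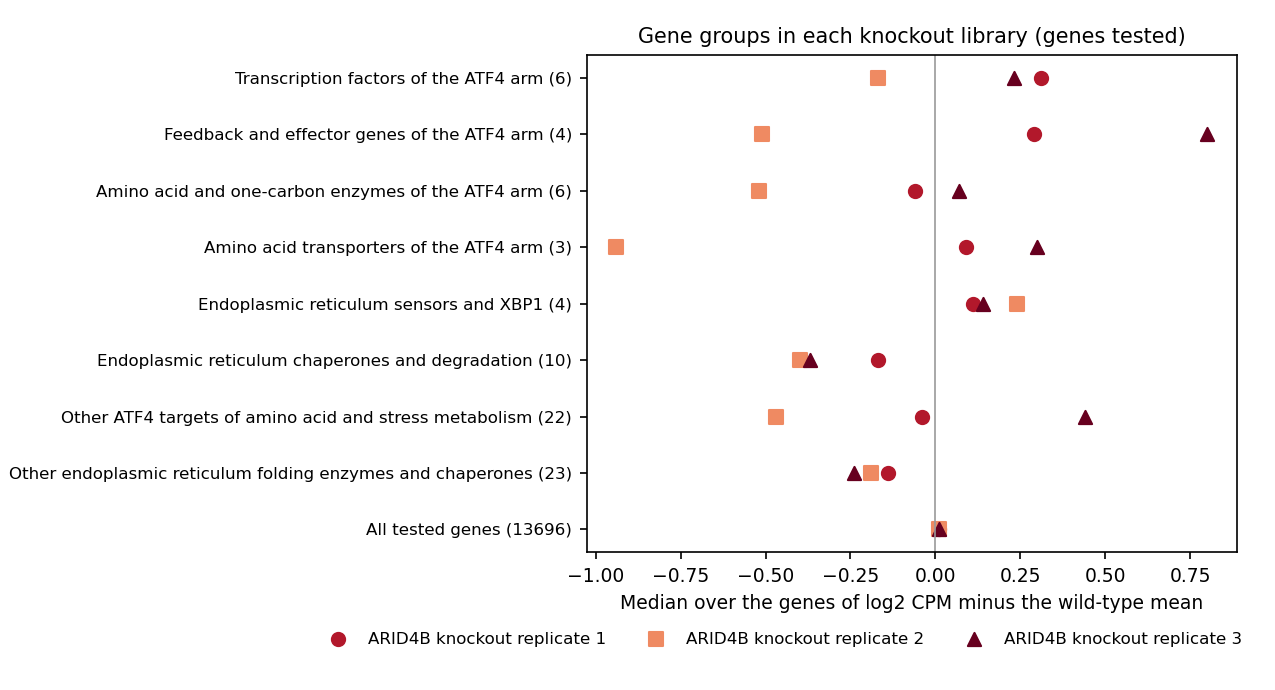
Median over each gene group of log2 CPM minus the wild-type mean, for each ARID4B knockout library; the number of tested genes is in parentheses. The ATF4-arm groups and the other ATF4 targets spread from knockout library 2 (squares) on the left to knockout library 1 or 3 on the right, while both groups of ER chaperones lie left of 0 in each knockout library.

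The genes around these arms, in lists that hold no member apart from SLC7A11, were counted in the same fit. Of 15 genes for eIF2 kinases, eIF2, its exchange factor eIF2B and its phosphatases, 0 rose and 3 fell. Among all tested genes 18.3% rose and 15.4% fell. EIF2B3 and EIF2B1, subunits of eIF2B, the factor that phosphorylated eIF2 blocks, averaged 93.0 ± 14.8 CPM in KO and 157 ± 4.72 CPM in WT libraries (log2 -0.76, adjusted p = 0.00481) and 125 ± 2.63 CPM in KO and 169 ± 2.79 CPM in WT libraries (log2 -0.44, adjusted p = 0.00301). The kinase genes EIF2AK1, EIF2AK2 and EIF2AK4 did not pass the threshold (log2 0.19, 0.25 and 0.15).

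Of the 22 other ATF4 targets, 4 rose and 3 fell, with a median log2 difference of -0.07. These shares were near the 18.3% and 15.4% of all tested genes that rose and fell. GDF15, a secreted stress cytokine, had 89.2, 73.3 and 161 CPM in KO libraries 1, 2 and 3, against 12.5, 11.7 and 12 CPM in WT libraries 1, 2 and 3, every KO library more than 5-fold above WT (log2 3.16, SE 0.3, edgeR adjusted p = 0.00135). KLHL24, a ubiquitin ligase adaptor, also rose, with 19.1 ± 5.79 CPM in KO and 5.56 ± 0.718 CPM in WT libraries (log2 1.78, adjusted p = 0.00364). CBS, which makes cystathionine from homocysteine and serine, fell, with 202 ± 30.6 CPM in KO and 338 ± 15.0 CPM in WT libraries (log2 -0.74, adjusted p = 0.0046), and EIF4EBP1, an inhibitor of cap-dependent translation, averaged 59.1 ± 6.66 CPM in KO and 85.2 ± 5.71 CPM in WT libraries (log2 -0.53, adjusted p = 0.00974).

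Of 23 other tested ER folding enzymes and chaperones 5 fell and 1 rose, with a median of -0.18, while 5 of the 10 member genes for chaperones and degradation fell and 1 rose, with a median of -0.28. Over all tested genes 15.4% fell and 18.3% rose, with a median of 0.02. DNAJC10, a disulfide reductase, averaged 82.9 ± 7.2 CPM in KO and 120 ± 6.44 CPM in WT libraries (log2 -0.53, adjusted p = 0.00534). ERO1L, the oxidase that supplies disulfide bonds, averaged 22.6 ± 2.71 CPM in KO and 30.9 ± 1.83 CPM in WT libraries (log2 -0.45, adjusted p = 0.0232). SIL1, an exchange factor of BiP, was the gene that rose (log2 0.47, adjusted p = 0.0457). Of 29 tested genes of ER degradation, translocation and stress transduction, 5 rose and 4 fell, shares near those of all tested genes. CREB3, an ER-anchored factor released by cleavage like ATF6, averaged 43.2 ± 3.52 CPM in KO and 18.8 ± 0.752 CPM in WT libraries, 2.3-fold higher (adjusted p = 0.000769), and KDELR3, which returns ER proteins from the Golgi, averaged 21.6 ± 2.56 CPM in KO and 11 ± 1.37 CPM in WT libraries (log2 0.97, adjusted p = 0.00439). SSR3, a subunit of the translocon-associated complex, and EDEM3, which trims mannose from misfolded glycoproteins, fell (log2 -0.59, adjusted p = 0.0248 and log2 -0.44, adjusted p = 0.0352). EDEM1 and EDEM2 of the same list rose (log2 0.47, adjusted p = 0.0067 and log2 0.71, adjusted p = 0.00335).

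Falls outnumbered rises in 3 further lists, beside 15.4% of all tested genes that fell. Outside the members, 12 of 15 listed enzymes of serine, glycine and folate metabolism passed the filter. Of these, 8 fell and 0 rose, with a median of -0.42. Of the 6 member enzymes 0 fell, with a median of -0.19 and a wider spread among the KO libraries. The median ratio of the highest to the lowest KO library was 2.14 for the member enzymes and 1.29 for the others. TYMS, thymidylate synthase, averaged 245 ± 68.0 CPM in KO and 405 ± 17.2 CPM in WT libraries (log2 -0.72, adjusted p = 0.0286), and GCSH, a part of the glycine cleavage system, averaged 50.1 ± 12.4 CPM in KO and 76.7 ± 5.79 CPM in WT libraries (log2 -0.62, adjusted p = 0.0333). Of 12 mitochondrial chaperones and proteases 8 fell and 1 rose, with a median of -0.36. HSPD1, the mitochondrial chaperonin HSP60, averaged 845 ± 17.4 CPM in KO and 1372 ± 51.2 CPM in WT libraries (log2 -0.70, adjusted p = 0.000869), and its partner HSPE1 averaged 195 ± 15.3 CPM in KO and 338 ± 9.41 CPM in WT libraries (log2 -0.79, adjusted p = 0.00133). The protease gene HTRA2 rose (log2 0.25, adjusted p = 0.0227). Of 18 tested targets of the oxidative stress factor NRF2, a list that includes SLC7A11, 5 fell and 0 rose. PRDX1, a peroxidase of the peroxiredoxin family, averaged 617 ± 56.2 CPM in KO and 907 ± 17.3 CPM in WT libraries (log2 -0.56, adjusted p = 0.00355), and SRXN1, which restores oxidised peroxiredoxins, averaged 50.5 ± 2.14 CPM in KO and 69.9 ± 3.57 CPM in WT libraries (log2 -0.47, adjusted p = 0.00482).

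Levels were compared between members as CPM per kb of mean transcript length, for the 33 members with a matched length. CALR was highest at 375 in KO and 459 in WT, and HSP90B1 followed it in both genotypes. ATF4 stood at 204 in KO and 197 in WT, rank 3 in KO and rank 5 in WT. DDIT3 had rank 15 in KO and rank 21 in WT, at 60.3 and 25.1, and ATF3 had rank 23 in KO and rank 29 in WT, at 19.9 and 8.84.

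The authors' deposited table of their own comparison listed 3153 genes, of which 2 were members. DDIT3 stood at log2 1.52 with a false discovery rate of 0.00699 in the authors' deposited table. ATF3 stood at log2 1.41 with a false discovery rate of 0.0254 in the authors' deposited table. The fit used here gave 1.26 for DDIT3 and 1.17 for ATF3. For ARID4B the authors' deposited table gave log2 -2.1 and the fit used here -2.36. All genes in that table had an absolute log2 difference of at least 0.59 by the authors' values. For DDIT3, ATF3 and ARID4B those values all lay above the ones of the fit used here, so sizes may not match between the comparisons. The reason for this shift was not tested. By the fit used here none of the falls in the ER arm reached 0.59. PPP1R15A and ERN1, which rose by 0.90 and 0.85 in that fit, were past 0.59 there and were not listed in the authors' deposited table. The largest unadjusted p in that table was 0.05 by the authors' own test, whose values for unlisted genes are not given. In sign it matched the fit used here for 2368 of the 2368 genes compared, those of the 3153 that passed the filter on low counts. Both comparisons come from the same series and the list holds only genes with a clear difference, so this match is no independent check.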

How the data were processed

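Messenger RNA was sequenced from 3 ARID4B knockout and 3 wild-type K562 libraries, with a strand-preserving kit, per the labels' protocols. The deposited gene table holds estimated counts without normalization, and the submitters' processing notes name STAR 2.4, RSEM 1.2.14, hg19 and GRCh37 without a role. RSEM divides reads that fit several genes, and 8 members, ATF4 among them, had a count that was not whole in at least 1 library. The notes do not say if counting was strand-aware, so reads may be mixed for the 7 members whose spans overlap another tested gene. The second deposited table holds the authors' log2 fold changes and p-values, whose test the sources used here do not name.

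After rounding to whole numbers, genotype was tested by edgeR's quasi-likelihood F test (version 4.0.16, in R 4.3.3) with TMM scaling, the default expression filter (minimum count 10) and Benjamini-Hochberg adjustment over 13696 genes. Levels are CPM after TMM scaling. Log2 CPM of single libraries used a prior count of 2. Alternatives used limma 3.58.1 and DESeq2 1.42.0, other scalings, no filter, an offset from neighbouring genes, a replicate block and leaving out each library. The calculation was tested on simulated data with the same spread in both genotypes, so the unequal spread of these libraries was not covered. A spreadsheet had turned 27 symbols into dates, which were restored. The table's start positions count from 0, so 1 was added. Promoters and proximal motifs used RefSeq on GRCh38.p14, and transcript lengths came from RefSeq accessions matched to the annotated transcripts. The members and lists were chosen with earlier results of these data known. All members were described or counted, and from each related list up to 2 genes each way were named. These had the largest difference where the adjusted p was under 0.05 and the higher genotype averaged at least 5 CPM. EDEM1 and EDEM2 were also named, beside EDEM3.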

Additional observations from a re-analysis of the deposited data

How the results depend on the processing

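Each member was refitted under 14 alternatives. Of the 10 members past the threshold, 5 stayed past it in all of them (ATF3, DDIT3, HSPA5, PDIA4 and CANX), and none of the 10 changed sign. Of the other 23, 11 missed the threshold in all of them. With all libraries 3 ATF4-arm members rose, 0 fell, 2 ER members rose and 5 fell. The ER falls numbered 3 when library totals alone set the scale, 3 with upper quartile factors (CANX, HSPA5 and PDIA4 each time), 7 with DESeq2, 7 without the expression filter (SDF2L1 and XBP1 added in both), 7 with the neighbourhood offset (ATF6, PDIA6 and SDF2L1 added, HYOU1 lost) and 6 with limma-voom weighted per genotype. The ATF4-arm falls numbered 1 with DESeq2, 1 with limma-voom weighted per genotype (ATF5 in both) and 1 with the neighbourhood offset (SHMT2). The ER rises numbered 3 with library totals alone, upper quartile factors and DESeq2 (EIF2AK3 added), and 1 with limma-voom, 1 with its weights, 1 without the expression filter, 1 with the neighbourhood offset and 1 with the replicate block, ERN1 in each of these fits. The ATF4-arm rises numbered 4 with library totals alone (SLC3A2 added) and 3 in the other fits with all libraries. Leaving out 1 library in turn gave 2 to 4 rises and 0 to 3 falls in the ATF4 arm, and 0 to 3 rises and 3 to 6 falls in the ER arm. The 3 ATF4-arm falls came without KO replicate 3 and were ATF5, PSPH and SLC7A11. Over all genes 4619 were past the threshold, and 2349, 2097 and 2178 without WT replicate 1, 2 or 3.

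Values that changed sign all belonged to members not past the threshold. With 1 library left out in turn the log2 difference ran from -0.10 (without KO replicate 3) to 0.17 for ATF4, from -0.02 (without WT replicate 3) to 0.17 for CEBPB, and from -0.19 (without KO replicate 1; -0.01 without WT replicate 1) to 0.14 for CEBPG. Without KO replicate 3 it was also of opposite sign for TRIB3 (-0.19 to 0.36), CHAC1 (-0.51 to 0.58), ASNS (-0.36 to 0.48) and PHGDH (-0.15 to 0.99), where the upper value came without KO replicate 2. PSAT1 ran from -0.68 to 0.03 and SLC7A5 from -0.41 to 0.09, the upper value again without KO replicate 2, and ATF6 from -0.07 to 0.08 (without KO replicate 1; 0.0014 without WT replicate 2). Without the filter ATF4 was at -0.001 and CEBPG at -0.01. CHAC1 was at -0.12 with limma-voom, -0.11 with its weights and -0.11 with the replicate block, PSPH at 0.0038 with the neighbourhood offset, and ATF6 at 0.11 with library totals and 0.08 with upper quartile factors. The cause of these changes was not tested. Same-numbered libraries of the genotypes hardly deviated together (correlations 0.0121, 0.018 and 0.00996). Between differently numbered libraries the correlations ran from -0.02 to 0.00703. These values gave no clear sign of a pairing by replicate number, but a weak pairing could be hidden by the wide KO spread. With the replicate block 3 ATF4-arm members rose, 0 fell, 1 ER member rose and 5 fell, and 3449 genes were past the threshold.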
